A study of Mus musculus with 39 samples.

Results

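The nuclear-encoded subunits of the mitochondrial respiratory chain and of ATP synthase were followed in the epididymal fat of C57BL/6J mice kept on different diets. Genes were taken by their symbols: the NADH dehydrogenase subunits of complex I (Nduf), the succinate dehydrogenase subunits of complex II (Sdh), the cytochrome bc1 subunits of complex III (Uqcr), the nuclear-encoded cytochrome c oxidase subunits of complex IV (Cox) and the ATP synthase subunits of complex V (Atp5). The symbol patterns could not match Ndufab1, Cyc1 or the Cox4 genes, so a complex below is the part of it that matched. Of 29411 gene names on the array, 82 matched, with 108 of 40628 probes. For every gene the probe with the highest mean signal stood for it. A gene was kept if that probe passed the scanner's background test (well above background) on 20 or more of the 39 arrays, which left 80 genes, 37 in complex I, 4 in complex II, 7 in complex III, 14 in complex IV and 18 in complex V. Each of the 80 was in fact well above background on all 39 arrays, so no kept gene passed through one diet alone.

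Weaned mice aged 3 to 4 weeks had been divided into 5 groups of 30. LFC mice received a low-fat diet with 10% of calories from fat, and HFC mice a high-fat, high-sucrose diet with 60% of calories from fat. KAL-1, an aqueous ethnobotanical formulation, was added to that high-fat diet at 5 µg in HF5, 20 µg in HF20 and 75 µg in HF75 mice. The arrays comprised 11 LFC (days 1, 6, 10 and 14, and weeks 0, 3, 6, 9, 12, 15 and 18), 10 HFC (the same from day 6) and 6 of each dose (weeks 3 to 18), 1 array for each diet and time point. The labels put the sacrifice of 5 animals per group at intervals of 3 weeks and do not say whether an array carried 1 animal or a pool. The series design speaks of 3 biological replicates of each diet, whereas 1 array per diet and time point was analysed here, so time points served as the replicates and p-values measure the spread between time points. Whole tissue was used, in which fewer adipocytes and less RNA per adipocyte cannot be told apart.

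The respiratory chain sits in the inner mitochondrial membrane. Complexes I and II take electrons from NADH and succinate, complex III passes them to cytochrome c and complex IV to oxygen, and complex V uses the resulting proton gradient to make ATP. Complex II, which is also an enzyme of the tricarboxylic acid (TCA) cycle, is wholly nuclear-encoded, whereas the others combine nuclear subunits with subunits of the mitochondrial genome, for which the symbol rule had no place. White adipocytes use this machinery during lipid synthesis and turnover, and brown adipocytes hold far more of it.

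A level below is the log2 processed signal minus the array's 75th percentile, so that 0 is the 75th percentile of the array. Levels of different probes cannot be compared as amounts of transcript. The 75th percentile of the signal ran from 119.5 (HF5 week 9) to 1515 (HFC week 12). On LFC week 3, 97.1% of spots were called well above background and 16431 were marked as outliers, and its Spearman correlations with the remaining arrays had a median of 0.694. HFC week 12 had 94.5% and 10531 outliers. The other 37 arrays had 53.7% to 79.6% and 21 to 387 outliers. Most median differences over all subunits are also given without LFC week 3 or HFC week 12. All 15 adipocyte markers, such as Adipoq, Plin1 and Fabp4, were well above background on all 39 arrays, and 7 of 11 epididymis markers on 20 to 33, with the other 4 on 14 to 19.

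Promoters help to place the genes, since respiratory genes are classical targets of nuclear respiratory factor 1 (NRF1), the ETS factor GABP, YY1 and estrogen-related receptors (ERR). RefSeq promoters (GRCm38.p6, 250 bases before to 50 after the start) were found for 67 of the 80 genes, 73 promoters in all. Those without an entry included Ndufa2, Ndufa4l2, Ndufb9, Ndufs1, Sdhc, Uqcrb, Uqcrc2, Uqcrq, Cox6a2, Cox6c, Atp5a1 and Atp5l2. On either strand, TGCGCA (the NRF1 core) occurred in 26.0% of the 73 and in 7.76% of all 32851 promoters, and AAGATGGCG (YY1) in 12.3% and 1.40%. CCGGAAGT (ETS/GABP) occurred in 6.85% against 3.89%, and TCAAGGTCA (ERR) in 2.74% against 0.423%. Any of the 4 occurred in 43.8% of the subunit promoters and in 12.6% of all. A match describes letters and not binding. 5 promoters are shown, with matches in capitals: Sdhd (chr9:50603800-50604099, minus strand) with NRF1 and ERR letters, Ndufs6 (chr13:73328433-73328732, minus) with NRF1 and YY1, Atp5g3 (chr2:73911277-73911576, minus) with ERR, and the isoform pair Cox8a (chr19:7217567-7217866, minus) with 2 ETS/GABP matches and Cox8b (chr7:140900397-140900696, minus) with none. They are given 5′ to 3′ on the gene's strand. The Atp5g3 promoter shown belongs to a start inside the gene, whose 5′ end lies at 73912464.
Sdhd: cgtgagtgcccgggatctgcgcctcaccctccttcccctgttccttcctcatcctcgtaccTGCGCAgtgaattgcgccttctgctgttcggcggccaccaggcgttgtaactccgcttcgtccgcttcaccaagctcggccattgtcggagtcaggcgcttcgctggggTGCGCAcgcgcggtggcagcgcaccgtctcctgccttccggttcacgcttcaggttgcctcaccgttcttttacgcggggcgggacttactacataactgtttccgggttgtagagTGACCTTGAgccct
Ndufs6: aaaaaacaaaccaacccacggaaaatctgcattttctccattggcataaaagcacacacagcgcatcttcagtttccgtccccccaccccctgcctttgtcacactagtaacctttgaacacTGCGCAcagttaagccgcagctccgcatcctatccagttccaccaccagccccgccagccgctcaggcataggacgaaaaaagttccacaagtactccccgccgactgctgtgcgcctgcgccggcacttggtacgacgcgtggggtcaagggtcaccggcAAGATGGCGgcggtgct
Atp5g3: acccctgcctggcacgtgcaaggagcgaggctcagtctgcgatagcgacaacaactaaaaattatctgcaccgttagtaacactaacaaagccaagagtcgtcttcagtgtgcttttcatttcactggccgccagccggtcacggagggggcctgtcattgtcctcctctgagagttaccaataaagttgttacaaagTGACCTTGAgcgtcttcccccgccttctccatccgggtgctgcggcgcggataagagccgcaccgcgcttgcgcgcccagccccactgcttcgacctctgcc
Cox8a: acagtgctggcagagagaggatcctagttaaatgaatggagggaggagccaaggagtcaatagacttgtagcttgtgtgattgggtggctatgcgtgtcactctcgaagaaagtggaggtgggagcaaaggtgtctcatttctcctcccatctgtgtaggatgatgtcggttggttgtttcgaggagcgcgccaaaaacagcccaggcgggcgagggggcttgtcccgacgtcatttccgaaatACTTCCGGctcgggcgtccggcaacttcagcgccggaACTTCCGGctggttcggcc
Cox8b: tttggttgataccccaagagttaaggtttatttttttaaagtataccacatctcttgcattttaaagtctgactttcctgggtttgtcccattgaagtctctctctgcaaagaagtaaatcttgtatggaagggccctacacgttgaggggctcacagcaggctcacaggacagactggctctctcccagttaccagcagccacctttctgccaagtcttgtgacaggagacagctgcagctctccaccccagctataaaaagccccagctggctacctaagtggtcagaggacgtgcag

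The subunits varied together from array to array. Over the 37 arrays other than LFC week 3 and HFC week 12, the median of the 80 levels ran from 2.88 on LFC week 6 to 5.09 on LFC day 6. The 5 lowest arrays were LFC week 6, LFC day 14, HF75 week 6, HF5 week 12 and HF5 week 15, at 2.88 to 3.39. The 5 highest were HF20 week 12, HFC day 6, LFC day 1, LFC week 12 and LFC day 6, at 4.75 to 5.09. High and low arrays therefore came from several diets. The Pearson correlation of a subunit with the median of the other 79 had a median of 0.80 and exceeded 0.5 for 67 of 80 subunits (83.8%), against 16.0% of 27358 other detected probes, whose median was -0.02. These correlations describe the 37 arrays, which share mice of common diets and the scaling, and carry no p-value.

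**Figure D1:**
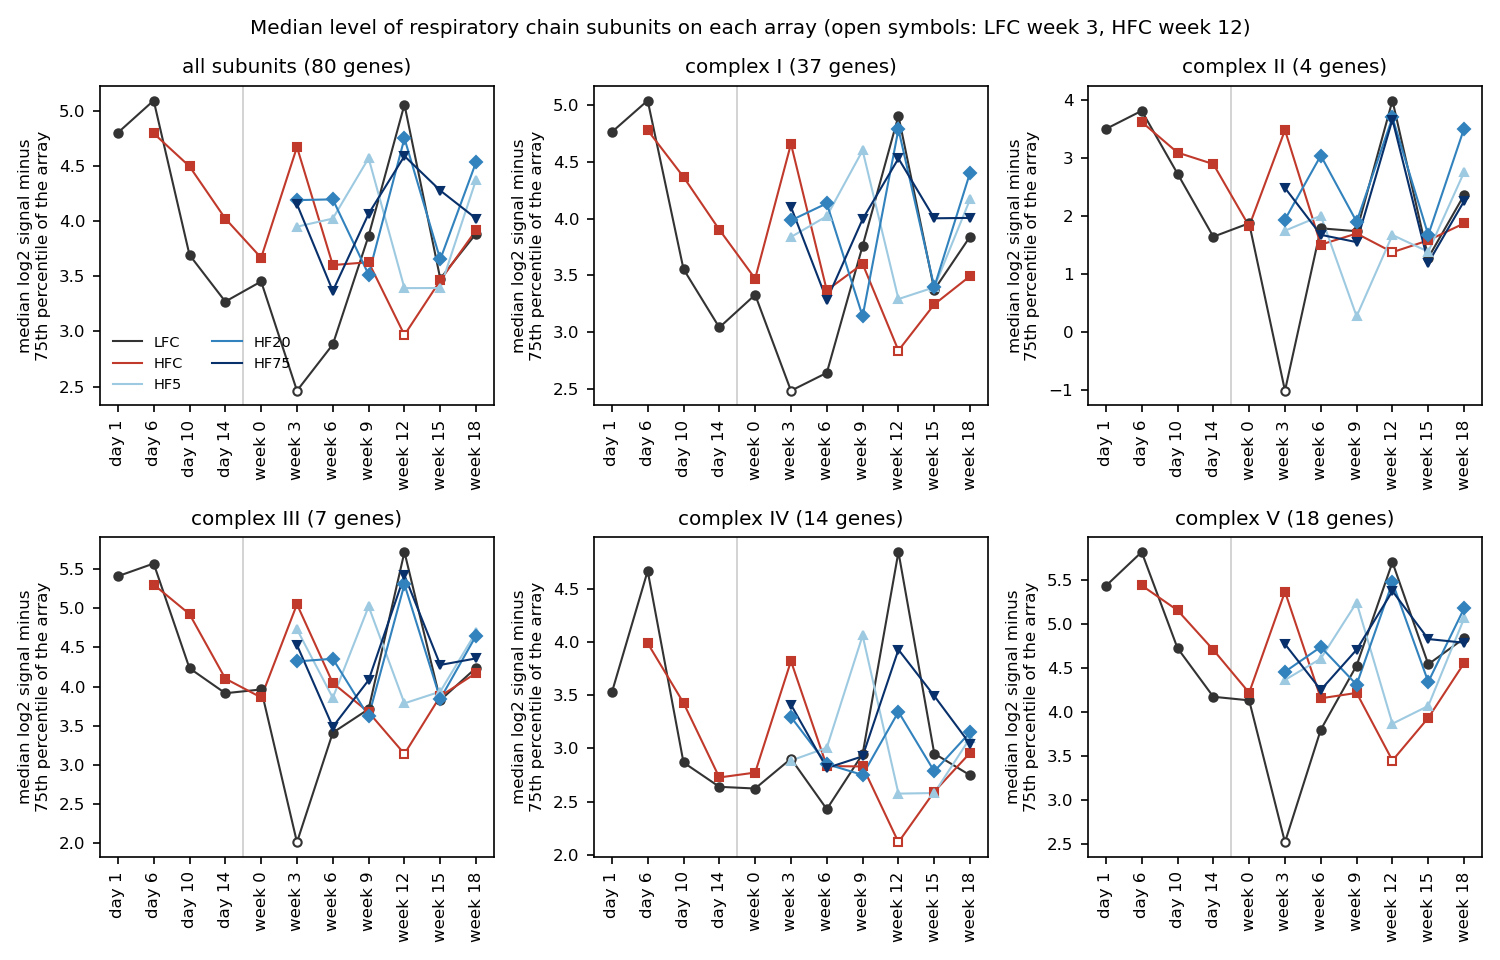
Median level of the subunits of each complex on every array (y axis, log2 signal minus the array's 75th percentile) against time point (x axis), 1 line per diet. All 5 complexes were high on LFC day 6 and on LFC week 12, and open symbols mark LFC week 3 and HFC week 12.

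By measured range, complex II had the widest course and complex V the narrowest. No complex II gene was saturated on any array, whereas Atp5b and Atp5g3 of complex V were saturated on 15 arrays and Atp5c1 on 11. Saturated levels are lower bounds, so the ranges of the complexes cannot be compared like for like. Over the 37 arrays the complex II median ran from 0.27 to 4.00, a 13.2-fold range. The range was 5.33-fold in complex IV, 5.29-fold in complex I, 4.95-fold in complex III and 4.06-fold in complex V. The lowest complex II value came from HF5 week 9, the dimmest array, where the medians of the other complexes were 4.06 to 5.24. Without that array the lowest complex II medians were 1.19 on HF75 week 15 and 1.28 on LFC week 15. By gene, the SD over the 37 arrays had a median of 0.64, from 0.25 for Cox7a2l to 1.92 for Cox8b. All detected probes had a median SD of 0.72. The member with the highest SD was Ndufb6 in complex I (1.25), Sdhb in complex II (1.17), Uqcrb in complex III (0.98), Cox8b in complex IV (1.92) and Atp5k in complex V (1.06).

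**Figure D2:**
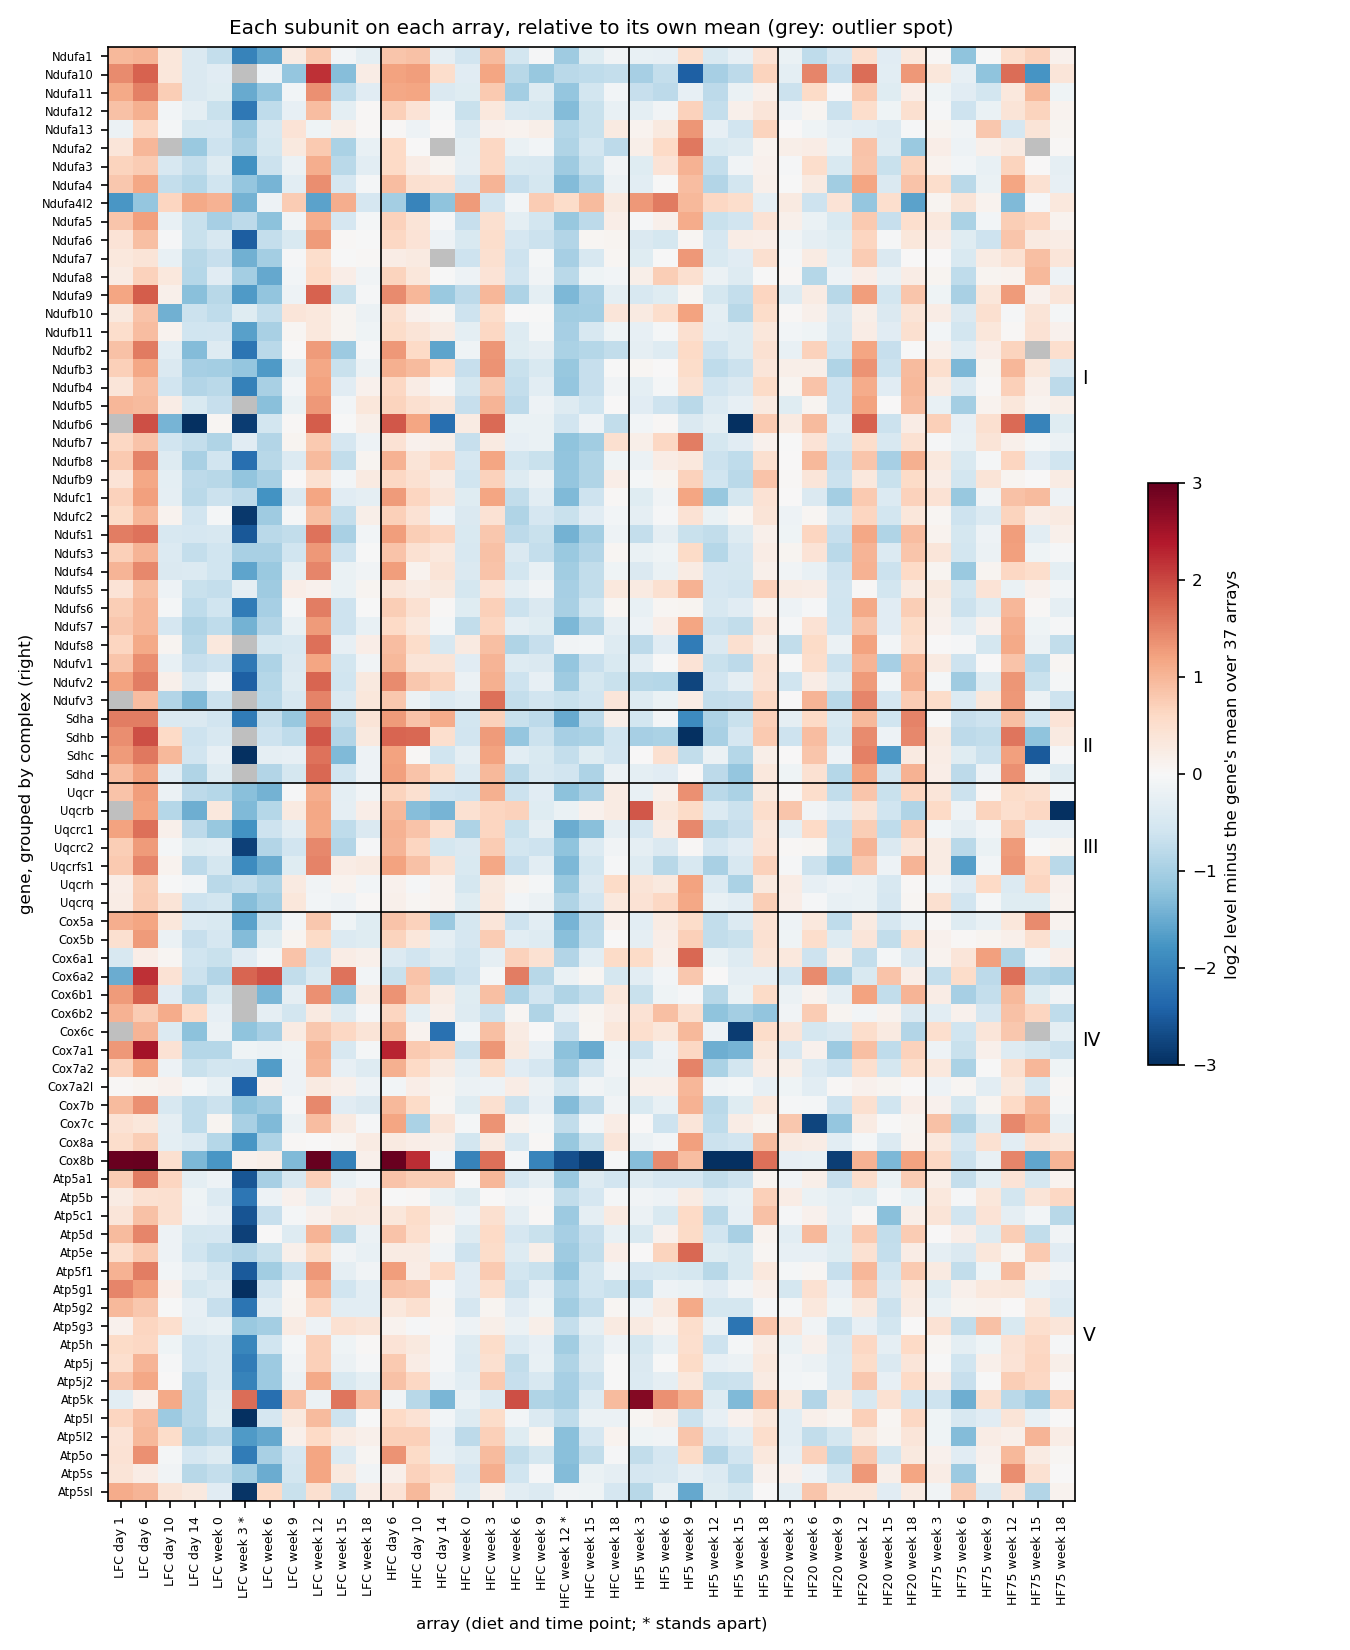
Level of 79 of the 80 subunits (rows, grouped by complex) on each of the 39 arrays (columns, by diet and time), as the log2 difference from the gene's own mean over 37 arrays, with colours ending at 3 in either direction. Most rows share the red columns (LFC days 1 and 6, LFC week 12, HFC day 6) and Ndufa4l2 runs opposite to them, while Cox8b has the deepest colours.

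The 4 succinate dehydrogenase genes are given array by array. In LFC, Sdhb, the iron-sulphur subunit, stood at 4.15 and 4.70 on days 1 and 6, 3.35 on day 10, 2.14 on day 14 and 2.26 at week 0. It was then 2.13 at week 6, 2.0 at week 9, 4.62 at week 12, 1.88 at week 15 and 3.05 at week 18, with its week 3 spot marked as an outlier. Week 12 thus lay within the range of days 1 and 6 while its neighbours did not. In HFC, Sdhb was 4.50 on day 6, 4.47 on day 10, 3.27 on day 14 and 2.18 at week 0, was 4.04 at week 3, and lay between 1.60 and 2.16 from week 6 to week 18. Sdha, the flavoprotein with the succinate site, was 2.96 and 2.97 in LFC on days 1 and 6, 0.99 on day 14 and 2.99 at week 12, against 0.30 to 1.81 on the other weeks from 6 to 18. Sdhc and Sdhd, the membrane anchors, were also highest in LFC at day 6 or week 12, with 3.33 and 3.37 for Sdhc and 4.31 and 4.79 for Sdhd.

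Levels were high on the first days and lower at day 14 and week 0 in both diets. The LFC median over the 80 subunits was 4.80 on day 1, 5.09 on day 6, 3.69 on day 10, 3.27 on day 14 and 3.45 at week 0. The HFC median was 4.79 on day 6, 4.50 on day 10, 4.02 on day 14 and 3.67 at week 0. In LFC the step lay between day 6 and day 10, and in HFC each of the 4 arrays was lower than the one before. The methods, written for liver of this diet design, count weeks from day 14, by which the day 14 and week 0 arrays stand for the same time. Week 0 minus day 14 was 0.18 in LFC and -0.35 in HFC. Days 1 to 14 and weeks 0 to 18 belong to separate scanning periods. Days 1, 6, 10 and 14 and week 0 were each scanned on a date of their own. The steps of the descent can therefore not be told apart from scan date. In the same LFC arrays the adipocyte markers went from a median of 5.87 and 6.47 on days 1 and 6 to 3.01 on day 14, and the cytosolic ribosomal proteins from 5.75 and 5.94 to 5.69. Saturation touched 45 of 82 cytosolic ribosomal probes and 11 of 15 adipocyte probes on at least 1 array, so these medians may be capped. The part of either list in the subunits' course was not tested.

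Late arrays (weeks 3 to 18) were then compared with early arrays (days 1 to 14 and week 0). Within HFC, 74 of 80 subunits were lower late, with a median difference of -0.44 against 0.02 for all probes, and none passed an adjusted p of 0.05 in limma (0% of all 29907 probes tested passed). At an unadjusted p under 0.05, 7 subunits, all lower late, were called (8.75%), a smaller share than the 17.1% of all probes. They included Ndufs1, Ndufv2 and Ndufa10 of complex I, Sdha and Sdhb of complex II and the ATP synthase alpha subunit Atp5a1. Ndufa10, an accessory subunit, differed by -1.19 (SE 0.49, adjusted p = 0.265 in limma) and Sdha by -1.15 (SE 0.48, adjusted p = 0.27). In HFC, Sdha stood at 2.70, 2.28, 2.53 and 0.87 on days 6, 10 and 14 and week 0, and at 2.11, 0.75, 0.64, -0.10, 0.65 and 1.59 from week 3 to week 18. Both were lower than the early mean on 5 of 6 late arrays, the exception being week 3, and the early and late values overlapped. Without HFC week 12 the median difference was -0.31 and 1 subunit reached an unadjusted p under 0.05 (15.5% of all probes). Without week 3 the count was 30 of 80 (28.2% of all probes) and without week 0 it was 23 (26.6%), so that both shares moved together. With array weights, 33 subunits passed, among 8014 of all probes, and Ndufa10 (adjusted p = 0.0112) and Sdha (adjusted p = 0.0149) were among them. With week 0 alone as the early array, which keeps to 1 scanning period, the median difference was 0.12, above 0.

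Within LFC, 72 of 80 subunits were lower late, with a median of -0.42 against -0.09 for all probes. None passed the adjusted threshold, which 0.468% of 30958 probes did, and 1 subunit, Cox6b2, had an unadjusted p under 0.05 against 5.49% of all probes. Cox6b2, the testis form of a complex IV subunit, differed by -0.84 (SE 0.36, adjusted p = 0.873 in limma), and was lower on all 5 late arrays with a value. Its highest level was -0.50 on LFC day 10, where 5 testis markers, such as Prm1, had a median of 3.27, against -4.43 at LFC week 0. The part of testis transcripts in the Cox6b2 level was not tested. Atp5a1 differed by -1.10 (SE 0.56) and Ndufa11, a membrane-arm subunit of complex I, by -0.93 (SE 0.55), both lower on 5 of 6 late arrays. Without LFC week 3 the median was -0.20, and with week 0 alone as the early array it was 0.22. Beside the subunits, 15 of 15 TCA cycle genes were lower late in both diets, with medians of -0.76 in LFC and -0.95 in HFC. In LFC the mean level of that list was 3.13 early, 2.34 late and 2.75 late without week 3, against 2.32 at week 0. In HFC it was 3.35 early, 2.36 late and 2.50 late without week 12, against 2.47 at week 0. The counts of TCA cycle and adipocyte genes are not given without those arrays. The adipocyte markers were lower for 12 of 15 in LFC (median -0.27) and for 13 of 15 in HFC (median -1.26), further than the subunits in HFC. The part of adipocyte content in the late against early differences was not tested.

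HFC was compared with LFC at the same time point to ask how the high-fat diet changed these genes. Over 10 time points, 62 of 80 subunits were higher in HFC, with a median difference of 0.12 (0.03 over all probes). No subunit passed the adjusted threshold (0% of 29698 probes passed) or an unadjusted p under 0.05 (3.05% of all probes). The pairs disagreed. The subunits' median difference was -0.30 on day 6, 0.54 on day 10, 0.72 on day 14, 0.10 at week 0, 2.29 at week 3, 0.39 at week 6, -0.19 at week 9, -2.09 at week 12, -0.32 at week 15 and -0.01 at week 18. The pair at week 3 holds the LFC array that stands apart and the pair at week 12 the HFC one. These pairs were the extremes. The LFC week 12 array was also high, with a subunit median of 5.06 against 3.87 at LFC week 9 and 3.48 at LFC week 15. Without LFC week 3 and HFC week 12 the median over 10 time points was 0.10. Without the week 3 pair it was -0.13 and without the week 12 pair 0.33.

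At weeks 3 to 18, 47 subunits were higher and 33 lower in HFC, with a median of 0.04 (all probes 0.06) and of -0.000611 without both arrays. None passed the adjusted threshold (0% of 32083 probes) or an unadjusted p under 0.05 (2.33% of all probes). The smallest p over 10 time points belonged to Cox6a2, the heart and muscle form of a complex IV subunit, with -0.63 (SE 0.32, adjusted p = 0.998 in limma), lower in HFC at 7 of 10 time points. Ndufb3 differed by 0.44 (SE 0.38), and Ndufs8, which carries iron-sulphur clusters, by -0.24 (SE 0.24). Over weeks 3 to 18 they were Ndufa4l2 with 0.62 (SE 0.40), Cox6a2 with -0.67 (SE 0.47) and Cox8b with -1.21 (SE 0.87), each in the named direction at 5 of 6 weeks. The week 12 pair, with the HFC array that stands apart, carried most of the Cox8b value, which was -0.08 without that pair. Ndufa4l2 was then at 0.32 and Cox6a2 at -0.86. The LFC array of that pair held the highest Cox8b level of the 37 arrays, 4.80. The median SE of a subunit's difference was 0.339 over 10 time points and 0.403 over weeks 3 to 18, so that differences of that size were not detectable with 1 array per time point.

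The change of the diet difference between early and late arrays was tested as well. Its median over the subunits was -0.15 (all probes 0.15), with -0.92 in complex II, and no subunit passed (0% of 29698 probes). The late pairs included week 3 and week 12, each with an array that stands apart. Values by complex or gene are not given without them. With each time point left out in turn, the median over the subunits fell on both sides of 0. Ndufa4l2 alone reached an unadjusted p under 0.05, against 5.26% of all probes. Its difference was 1.78 (SE 0.70, adjusted p = 0.833 in limma), with all 6 late pairs above the early mean. That early mean was set by days 10 and 14, when Ndufa4l2 was 0.30 and 1.06 in HFC against 2.92 and 3.43 in LFC. On day 6 and at week 0 it was 1.25 and 3.55 in HFC against 1.11 and 3.33 in LFC. Sdhb and Sdhd differed by -1.34 (SE 0.65) and -1.17 (SE 0.60), below the early mean in 5 of 5 pairs with a value.

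**Figure D3:**
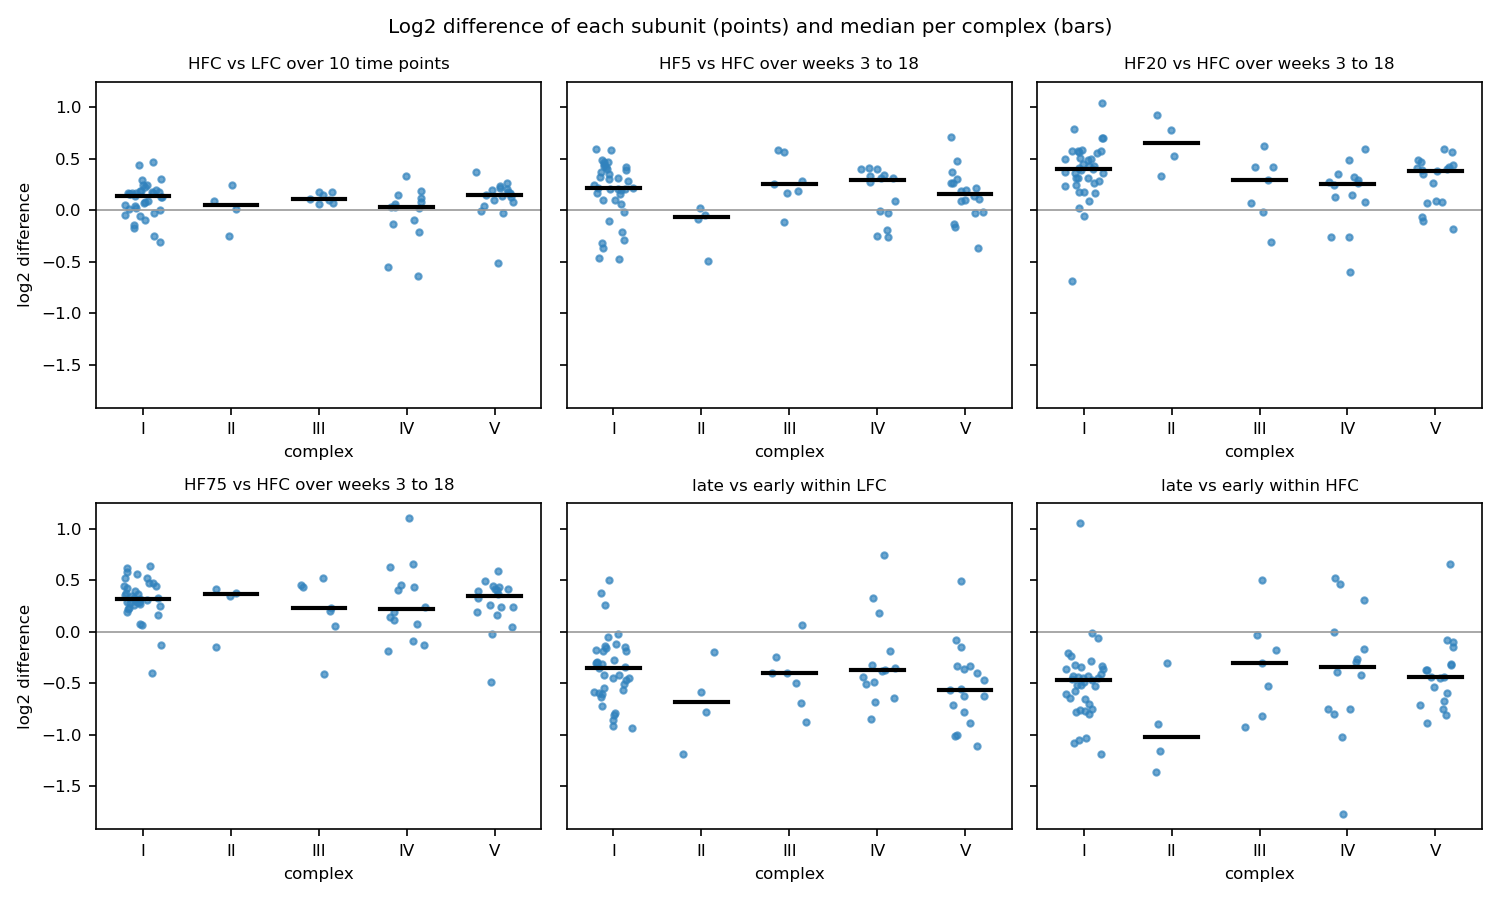
Log2 difference of each subunit (points) and the median of each complex (bars) in 6 comparisons, with complex on the x axis. The late against early differences lie mostly below 0 and those of HF20 and HF75 against HFC mostly above, and no single subunit passed the adjusted threshold.

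The KAL-1 diets were compared with HFC at weeks 3 to 18. Most subunits stood higher at each dose. The count was 58 of 80 with a median of 0.21 at HF5, 70 with 0.36 at HF20 and 71 with 0.32 at HF75, and 73 with 0.29 for the mean of the 3 doses, while the medians of all probes were -0.03, -0.07, -0.02 and -0.03. These comparisons share the HFC arrays. None of the subunits passed the adjusted threshold at any dose, nor in the mean (0% of 32083 probes in each). At an unadjusted p under 0.05 there was 1 subunit at HF5 (3.44% of all probes), 1 at HF20 (5.05%), 0 at HF75 (1.54%) and 0 in the mean (1.86%). HFC week 12, which stands apart, bears on all of them. Without it and LFC week 3 the medians were -0.04 at HF5, 0.13 at HF20, 0.11 at HF75 and 0.06 in the mean.

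Week by week the KAL-1 differences changed sign. At week 3 the medians were -1.02 at HF5, -0.77 at HF20 and -0.55 at HF75, with 71, 71 and 72 of 80 subunits lower than in HFC. At week 12 they were 0.48, 1.76 and 1.64, with 69, 78 and 78 higher. Against that week's LFC array, at 5.06, HF20 and HF75 stood at 4.75 and 4.59, HF5 at 3.39 and HFC at 2.97. The medians were 0.40, 0.64 and -0.08 at week 6, and 0.85, -0.20 and 0.33 at week 9. The medians at week 15 were 0.14, 0.18 and 0.80, and at week 18 they were 0.41, 0.63 and 0.01. The medians followed the order of the doses at weeks 3 and 15 and not at the other weeks. At week 12 the adipocyte markers differed from HFC by 0.15 at HF5, 2.18 at HF20 and 1.96 at HF75, and the mitochondrial ribosomal proteins by 0.44, 1.91 and 1.70. The cytosolic ribosomal proteins differed by 0.68, 0.27 and 0.09. On the week 12 arrays 18 subunits were saturated at HF20 and 24 at HF75, against 1 each at HF5 and HFC. The HF20 and HF75 differences may therefore be lower bounds. Saturation also touched 45 of 82 cytosolic ribosomal and 11 of 15 adipocyte probes on at least 1 array, so their differences may be capped.

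**Figure D4:**
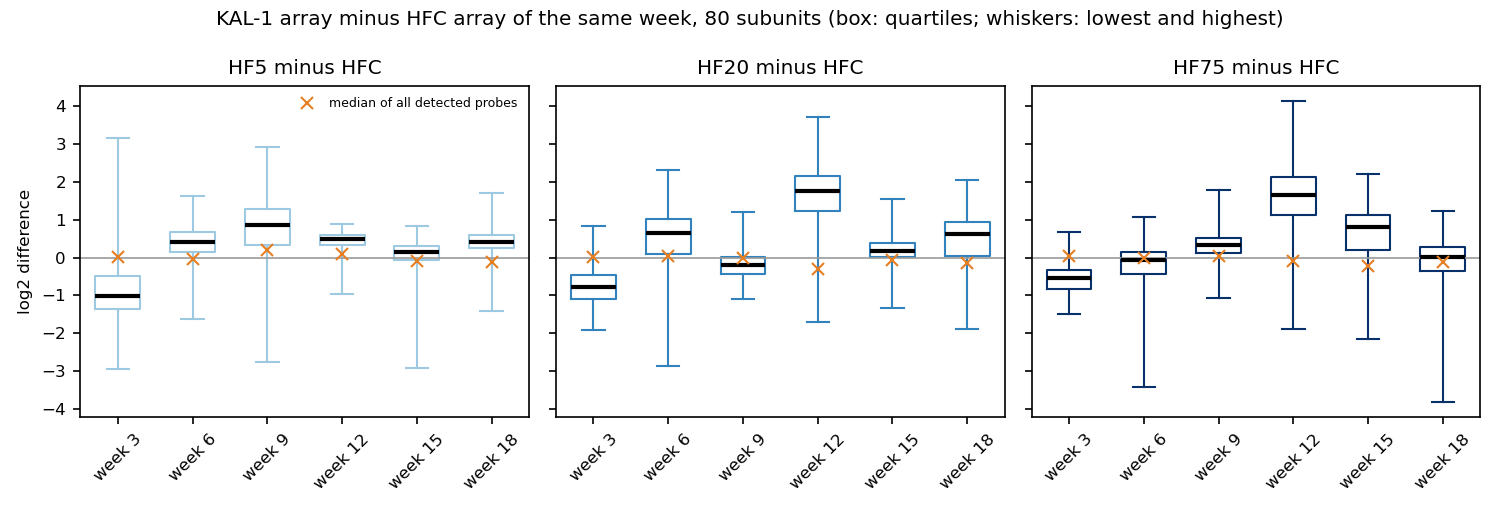
Log2 difference between the KAL-1 array and the HFC array of the same week (y axis) over 80 subunits at weeks 3 to 18 (x axis), 1 panel per dose; boxes give quartiles, whiskers the lowest and highest subunit and crosses the median of all detected probes. The boxes lie below 0 at week 3 and, for HF20 and HF75, above 1 at week 12, where the HFC array stands apart.

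At HF5 the smallest p belonged to Uqcrq, a small subunit of complex III, with 0.58 (SE 0.28, adjusted p = 0.955 in limma). Its levels were 6.26, 6.44, 6.99, 5.59, 5.5 and 6.55 from week 3 to week 18 against 6.13, 5.73, 5.65, 4.93, 5.26 and 6.14 in HFC. The HFC week 3 spot was saturated, so 6.13 is a lower bound and no direction is given for that week, while HF5 was the higher at the other 5. Ndufb7 and Ndufa2 of complex I differed by 0.59 each (SE 0.34 and 0.35). At HF20 it was Ndufa10 with 1.04 (SE 0.47, adjusted p = 0.772 in limma), higher at 5 of 6 weeks. Its levels were 1.30, 3.05, 0.89, 3.28, 1.28 and 2.89 against 2.77, 0.75, 0.44, 0.78, 0.84 and 0.87. Sdhb differed by 0.93 (SE 0.51), and complex II as a whole had the highest median at HF20, 0.65. At HF75 they were Cox5a with 0.66 (SE 0.39), Cox7b with 0.63 (SE 0.40) and Ndufa7 with 0.52 (SE 0.35), and for the mean dose Ndufa12, Ndufs7 and Uqcrc1 with 0.51, 0.53 and 0.57.

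HF75 and HF5, the ends of the dose range, differed by a median of 0.15 (57 of 80 subunits higher at HF75, all probes 0.005). None passed (0% of 32083 probes), and Ndufa4l2 was the 1 subunit with an unadjusted p under 0.05, against 5.73% of all probes, at -0.86 (SE 0.40, adjusted p = 0.86 in limma) and lower at HF75 at 5 of 6 weeks. Atp5k, a small subunit of the membrane part of ATP synthase, differed by -1.20 (SE 0.63) and Uqcrq, saturated on the HF75 week 12 array, by -0.53 (SE 0.28).

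A set of 15 subunits chosen as core, not all of them catalytic (Cox5a and Cox5b are not), varied in how closely they followed the rest. Ndufs3, Ndufs7 and Ndufv1 of complex I had r of 0.94, 0.93 and 0.91 with the other subunits, and Uqcrc2 and Uqcrc1, the core proteins of complex III, 0.89 and 0.88. Ndufs8 (0.52) and Ndufv2 (0.62) followed less closely, and each was far below its own mean on HF5 week 9. Late against early in HFC, all 15 core subunits were lower, from -0.10 in Atp5b to -1.07 in Ndufs1. For the mean KAL-1 dose all 15 were higher than HFC, from 0.01 in Atp5c1 to 0.57 in Uqcrc1. Of all 80 subunits, 74 were lower in the former comparison and 73 higher in the latter. Both comparisons include the HFC array that stands apart, and the core counts are not given without it. On that array Atp5c1 had its lowest HFC level, 4.62, with the next at 5.43. Over the 37 arrays the correlation with the other subunits was above 0.5 in 34 of 37 complex I genes, 4 of 4 complex II genes, 6 of 7 complex III genes, 9 of 14 complex IV genes and 14 of 18 complex V genes. Among the lowest were Cox6a1 at -0.10 and Atp5b at 0.25. Cox6a1 was saturated on 36 arrays and the ATP synthase subunits Atp5b and Atp5g3 on 15, so that their levels are lower bounds there. Ndufa13, Ndufs5, Uqcrq, Cox8a and Atp5c1 were saturated on 11. Saturation touched 26 subunits, and 11 arrays with 9 to 24 saturated subunits had medians of at least 4.02. Of 22 genes with further probes, 24 of 26 such probes had r above 0.5 with the brightest probe, the exceptions being both of Atp5b.

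Tissue-restricted isoforms were set beside their widespread partners. Cox8b, the heart, muscle and brown fat form, stood in LFC at 3.53 and 4.52 on days 1 and 6, 1.05 on day 10, -0.78 on day 14, -1.19 at week 0, 0.69 at week 3, 0.75 at week 6, -0.76 at week 9, 4.80 at week 12, -1.47 at week 15 and 0.71 at week 18. Its 37 values spanned 166-fold, from -2.57 on HF5 week 15 to LFC week 12, whereas the widespread form Cox8a spanned at least 4.50-fold. Cox8a was saturated on 11 arrays, LFC days 1 and 6 and week 12 among them, where Cox8b was highest, so both spans cannot be set against each other. Neither Cox7a1 nor Cox7a2 was saturated on any array. Cox7a1, also of muscle and brown fat, spanned 16.2-fold, from -0.94 to 3.08 on LFC day 6, and Cox7a2 9.0-fold. Cox8b and Cox7a1 followed the other subunits (r of 0.81 and 0.79 over 37 arrays), and Cox6a2 did not (r of -0.03). Beside them the brown fat marker Ucp1, well above background on 37 arrays, ranged from -7.23 to -0.46 with r of -0.21, and Cidea from -2.32 to 5.67 with r of 0.57. The other 4 brown fat markers had r of 0.69 (Ppargc1a), 0.33 (Dio2), 0.22 (Cpt1b) and -0.68 (Prdm16). The 11 skeletal muscle markers had r of -0.71 to 0.30 with the subunits. The part of brown-like or muscle cells in these levels was not tested.

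**Figure D5:**
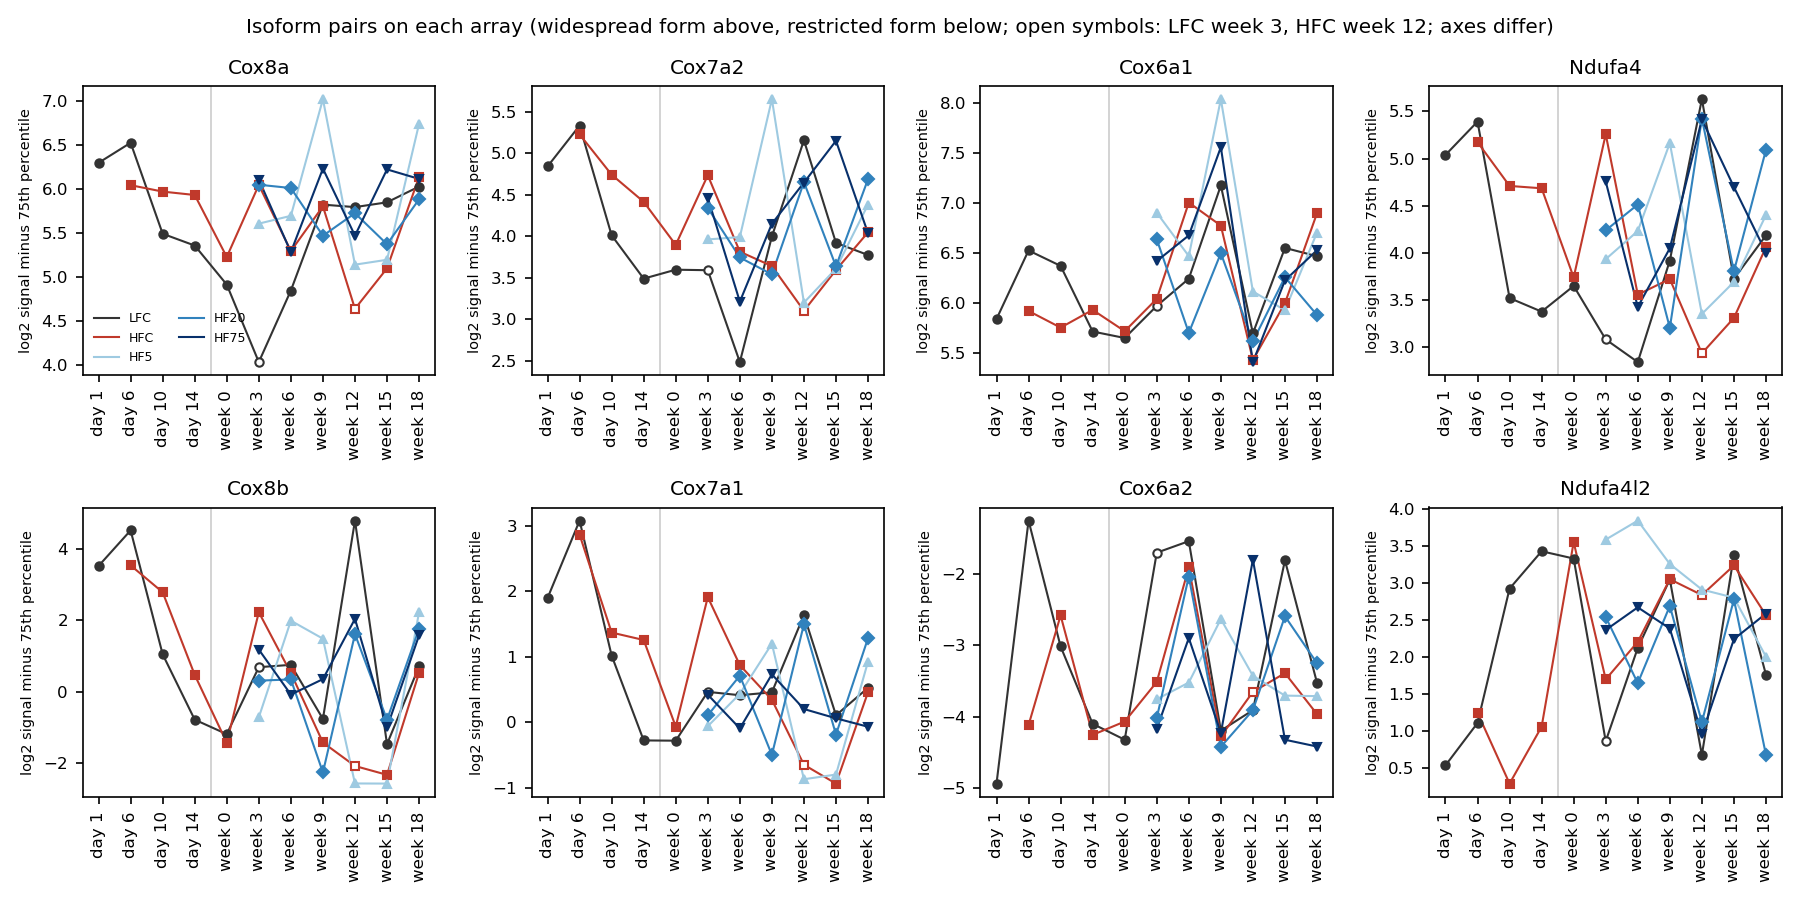
Level of 4 isoform pairs (y axis, log2 signal minus the array's 75th percentile, axes differ) against time point (x axis), 1 line per diet, with the widespread form above and the restricted form below. Cox8b spans 166-fold, Cox8a (saturated on 11 arrays) at least 4.50-fold and Cox6a1 was saturated on 36, and Ndufa4l2 is low on LFC days 1 and 6 and LFC week 12, where Ndufa4 is high.

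Ndufa4l2 ran against the other subunits (r of -0.69). It is known as a gene induced by hypoxia and is not a structural subunit of complex I. In LFC it was 0.54 and 1.11 on days 1 and 6, 2.92 on day 10, 3.43 on day 14, 3.33 at week 0, 2.12 at week 6, 3.05 at week 9, 0.68 at week 12, 3.37 at week 15 and 1.76 at week 18. In HFC it was 1.25, 0.30 and 1.06 on days 6 to 14 and 3.55 at week 0. Ndufa4, now counted with complex IV, was 5.04 and 5.39 on LFC days 1 and 6, 3.38 on day 14 and 5.63 at week 12 (r of 0.95). On HF5 week 9, however, both were high, at 5.17 and 3.25.

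The rule dropped Cox7b2 and Cox8c, which are testis forms. Cox7b2 was well above background on 7 arrays and Cox8c on 17, and Cox8c reached 0.90 on LFC day 10 against -9.05 at LFC week 0, where it was not well above background. The testis markers had medians of 3.27 and -4.43 on the same arrays. Atp5s and Atp5sl are named Dmac2l and Dmac2 in RefSeq and are not core subunits, and Atp5l2 matched only a pseudogene, so it may share signal with Atp5l.

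Genes around the respiratory chain were described in the same way. Of 22 assembly factors with a value on all 37 arrays, 18 had r above 0.5 with the subunits, as did 12 of 14 TCA cycle genes, 66 of 70 mitochondrial ribosomal proteins and 13 of 15 adipocyte markers. Of the cytosolic ribosomal proteins 3 of 70 did, but 45 of the 82 kept were saturated on at least 1 array and up to 43 on a single array, as were 11 of 15 adipocyte markers on LFC week 12, which limits these correlations. No mitochondrial ribosomal protein was saturated. Among 15 regulators the highest were Tfb2m, a mitochondrial transcription factor, at 0.85, Esrra, the receptor ERR alpha, at 0.84 and the mitochondrial RNA polymerase Polrmt at 0.77, followed by the nuclear receptor Ppara at 0.73 and Ppargc1a, the coactivator PGC-1 alpha, at 0.69. Gabpb1, a subunit of GABP, was at -0.79 and Pprc1, a relative of PGC-1, at -0.63. Of the factors behind the promoter motifs, Nrf1 was at -0.38, Yy1 at -0.26 and Gabpa at -0.22. Late against early in HFC, 1 regulator was higher and 1 lower at an unadjusted p under 0.05, and 6 of 15 TCA cycle genes, 10 of 75 mitochondrial ribosomal proteins and 4 of 15 adipocyte markers were lower at that p, beside the 17.1% of all probes called in either direction. Whatever the p, 70 of the 75 mitochondrial ribosomal proteins were lower, with a median of -0.62. For the mean dose against HFC, all 15 adipocyte markers, 14 of 15 TCA cycle genes and 70 of 75 mitochondrial ribosomal proteins were higher, with medians of 0.53, 0.27 and 0.27, and 74 of 82 cytosolic ribosomal proteins with 0.14. These counts include HFC week 12, the array that stands apart, and are not given without it.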

How the data were processed

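RNA of mouse epididymal adipose tissue was measured on 39 one-colour Agilent arrays, on 32 slides scanned on 13 dates. Per the file headers, the deposited intensity values had been background-subtracted and detrended within each array by Agilent Feature Extraction 10.5.1.1, with no normalization between arrays. The annotation was on mm9. The authors' deposited table holds their own log2 differences from LFC, made in GeneSpring GX, and was not used.

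The intensity was log2 transformed and the array's 75th percentile subtracted. Outlier spots were set to missing, which left 9 of the 80 subunits without a value on LFC week 3, and spots of a probe were averaged. Probes entered a test if well above background on 10 of 20 arrays (HFC against LFC and its change), 6 of 30 (weeks 3 to 18) or 5 (late against early within a diet). The test was that of limma (version 3.58.1, R version 4.3.3), two-sided, with Benjamini-Hochberg adjustment over all probes tested and a threshold of 0.05. Diets were compared with the time point as a block. The fit was tested on simulated data. The R package data.table (version 1.17.8) and, in Python, pandas, numpy and matplotlib served for reading and drawing. Precision is limited by the number of arrays.

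Named genes were the complex II subunits, the core set, isoform sets and the 3 smallest p of each comparison. Also named were genes dropped by the filter and, for each complex, the extremes of signal and SD (signals of different probes were not ranked). The values of 1 subunit are not reported here on their own. Members and lists were chosen with earlier results of these data known. Gene names were matched to RefSeq (GRCm38.p6), 77 of 82 under the same symbol. Alternatives were other scalings and background correction, filters, probes, blocks, array weights and arrays left out.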

Additional observations from a re-analysis of the deposited data

Results flagged for a closer look

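Within HFC (10 arrays) and each dose (6 arrays), 54 items (the medians of all subunits and of each complex, and 48 named genes) were examined for a lone value far from the rest. Of 216 item and group pairs, 13 had one (6.02%), and chance gives about 1 in 20. Single HFC values were Atp5c1 at 4.62 and Atp5g3 at 5.15, both on week 12, the array that stands apart. On HF5 week 9, the dimmest array, the complex IV median was 4.06 (next 3.10), Cox6a2 was -2.63 and Cox7a2l 3.65. On HF75 week 12, Ndufa4l2 was low at 0.96, Ndufs7 high at 5.22 and Uqcrc1 high at 4.32. The others were Atp5g3 at 3.68 and Ndufb6 at -0.58 on HF5 week 15, Atp5c1 at 4.44 on HF20 week 15, Uqcrb at -0.22 on HF75 week 18 and Uqcrfs1 at 4.29 on HF5 week 18. LFC, with 11 arrays, was not examined.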

How the results depend on the processing

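No subunit passed in any of the 10 comparisons, under every alternative run except array weights, which gave 33 in HFC late against early (of 8014 probes); the cause was not tested. With week 0 as the only early array, the HFC late against early median of all subunits moved from -0.44 to 0.12, Sdha was 0.0712 above 0 and Cox6b2 in LFC 0.0552 above 0. Median scaling moved the median of all probes by 0.34 for the mean KAL-1 dose, and relative to all probes the subunits then differed by 0.33, against 0.30 as reported, 0.09 with quantile normalization and 0.30 with normexp. For HF5 the subunits' median was -0.04 with quantile normalization and -0.06 with normexp. Leaving out each time point gave 0 passing subunits throughout and medians of -0.13 to 0.33 (HFC against LFC, 10 time points), -0.40 to 0.43 (weeks 3 to 18), 0.08 to 0.43 (HF5), 0.07 to 0.60 (HF20), 0.10 to 0.49 (HF75), 0.10 to 0.51 (mean dose), -0.09 to 0.27 (HF75 against HF5), -0.69 to -0.17 (LFC late), -0.66 to -0.27 (HFC late) and -0.67 to 0.22 (change of the diet difference). Without the block for time point the HFC against LFC median was 0.13 and no call changed. With scan date as the block it was -0.13, the same as without the week 3 pair. The arrays of that pair were scanned on different dates, so the block takes the pair out of the comparison. The authors' table was not run as an alternative because it holds differences from LFC. The slide as a random block was not run within LFC or HFC, where no slide holds 2 arrays.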
